A study of Mus musculus with 6 samples.

Results

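The older LINE1 families of the mouse were described here in the RNA of juvenile testes with and without an intact contact between SPOCD1 and SPIN1. They were taken by name, as every family starting with L1 or Lx apart from L1_MM, L1Md_Gf_5end and the A, Tf, Gf, F and N families. This gave 31 of the 363 repeat families in the table of counts, and 31 of the 51 LINE1 families. The 20 others are called the remaining LINE1 families below. They include the A, Tf and Gf families, which are young and active, but also the F families, an old group, so the list is set by name and does not hold every old LINE1 family. L1Md_F_5end is counted among the older families by this rule although its name refers to the F family.

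RNA-seq was performed on testes of 3 wild-type mice and 3 mice homozygous for the Spocd1 dSpin1 allele (Spocd1 ΔSPIN1, below also the mutants), in which the binding of SPOCD1 to SPIN1 is disrupted. All 6 mice were at postnatal day 20 and of a mixed B6CBAF1/Crl and C57BL/6N background, and each library came from a single testis. The comparison asks whether older LINE1 RNA differs between the genotypes. Total repeat counts were 416517, 369598 and 499166 in wild-type replicates 1, 2 and 3, and 842018, 1013224 and 918487 in the mutant replicates. The table lists no genes, so the genotype, the cell types of the tissue and the total depth of each library were not checked here.

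LINE1 elements are retrotransposons that copy themselves through an RNA intermediate, and most copies in a genome are truncated at their 5′ end or have lost their promoter through mutation. In the fetal male germ line, the nuclear piRNA pathway directs DNA methylation to the promoters of LINE1 copies that can still be transcribed, and SPOCD1 is required for this step. SPIN1 is a reader of histone methylation. Families that stopped multiplying long ago, such as the Lx families of early murine rodents, hold mostly inactive copies, and their sequence can be carried in other transcripts, for example in introns and untranslated regions.

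The older LINE1 families together held 62266, 49937 and 76592 counts in wild-type replicates 1 to 3 and 61949, 76809 and 69061 in mutant replicates 1 to 3. Of the 31 families, 26 had enough counts to be tested, among 292 families tested in all. The 5 others were LX6, LX7, LX8, LX8B and LX10, with between 0 and 8 counts in each library. For the tested families, the lowest count in any library ranged from 11 for LX9 to 6531 for L1MdFanc_I, which corresponds to counting errors of 30.2% and 1.24%. These errors leave out PCR duplication and any other source than counting.

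Older LINE1 RNA was dominated by long entries. The 12 tested families with an entry of at least 6000 bases took 88.0%, 87.6% and 88.2% of the older LINE1 counts in wild type and 88.3%, 88.3% and 88.5% in the mutants. Per length, however, the highest levels belonged to short entries for the 3′ end of the element. Levels were compared as TMM-normalized CPM (counts relative to an equal library total) per kb, where TMM (trimmed mean of M-values) scales libraries so that most families do not change.

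L1_Mus1_3end had the highest level, with 4156, 3896 and 3854 CPM per kb in wild type and 4020, 4242 and 4441 in the mutants. L1_Mus2_3end followed with 3419, 3335 and 3289 CPM per kb in wild type and 3037, 3393 and 3435 in the mutants. For both 3′ entries the genotypes overlapped, and mutant replicate 3 was the highest library. LX2B, an Lx entry of 611 bases, came next with a mean of 2756 CPM per kb over the 6 libraries. L1MdFanc_I and L1MdV_I followed LX2B with means of 2165 and 1613 CPM per kb. At the other end LX9 had a mean of 15.4 CPM per kb, so the tested older families spanned a wide range of levels.

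**Figure D1:**
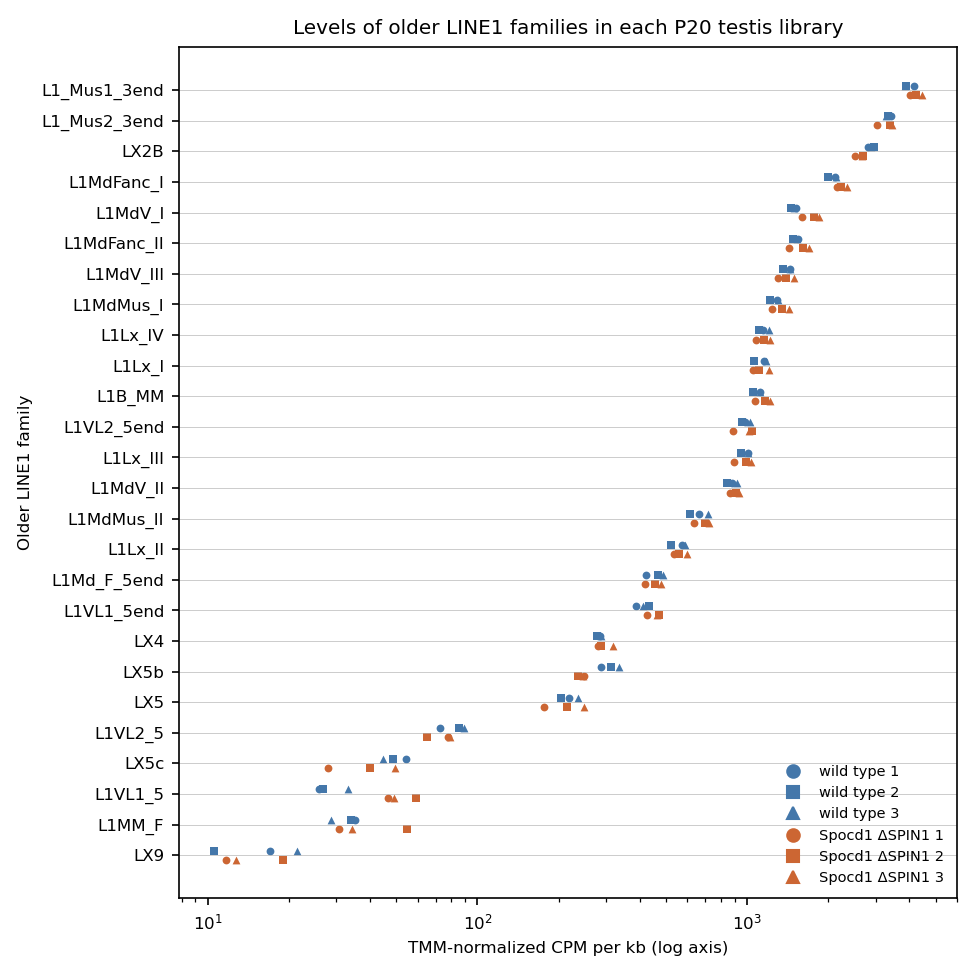
TMM-normalized CPM per kb (log axis) of the 26 older LINE1 families tested, with 1 point per library (blue, wild type; orange, Spocd1 ΔSPIN1; the marker gives the replicate). The genotypes lie close together in most families, from L1_Mus1_3end with a mean of 4102 down to LX9 with a mean of 15.4. They do not overlap in L1VL1_5, L1MdV_I, LX2B, LX5b and, by a narrow margin, L1MdFanc_I. Of all families tested, 20.9% were higher and 25% lower without overlap.

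No older LINE1 family passed the threshold in the comparison of the genotypes on the TMM scale. With edgeR's quasi-likelihood test and Bonferroni adjustment over all 292 families, 0 of 26 older families were higher and 0 were lower in the mutants, while 5.48% of all families tested were called higher and 2.74% lower. At an unadjusted p under 0.05, edgeR gave 3 of the 26 older families, 2 higher and 1 lower, against 42.5% of all families. DESeq2's Wald test also gave 0 and 0 after Bonferroni adjustment, where it called 10.3% of all families higher and 5.82% lower. At an unadjusted p under 0.05 it gave 2 older families higher and 1 lower, against 35.3% of all families. With the less strict Benjamini-Hochberg adjustment, edgeR called 1 older family higher (L1VL1_5, which was below 0 with total counts) and 1 lower (LX5b), where 15.4% of all families were called higher and 16.1% lower.

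The median log2 fold change of the 26 older families was 0.0021, beside −0.039 over all 292 families and 1.19 over the 20 remaining LINE1 families. Of the older families, 13 lay above 0 and 13 below. Fold changes were smaller than 0.15 in either direction on the log2 scale for 19 of the 26, and for 83 of all 292 families. The 95% intervals lay within −1 and 1 for 25 older families, the exception being L1VL1_5, and within −0.5 and 0.5 for 20 older families. Over all 292 families these numbers were 210 and 99.

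These directions depend on how libraries are scaled. On total counts, without TMM factors, the median of all families moved to −1.05 and that of the older families to −1.02, and all 26 older families lay below 0, of which 23 passed the Bonferroni threshold as lower. With that scaling 57.5% of all families tested were called lower. Beside this, the remaining LINE1 families took 30.4%, 29.0% and 31.5% of all repeat counts in wild type and 53.1%, 60.9% and 62.1% in the mutants. Values below are on the TMM scale or are ratios within a library, which need no scaling. RNA per cell and the number of cells that contain it cannot be told apart in whole testes.

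**Figure D2:**
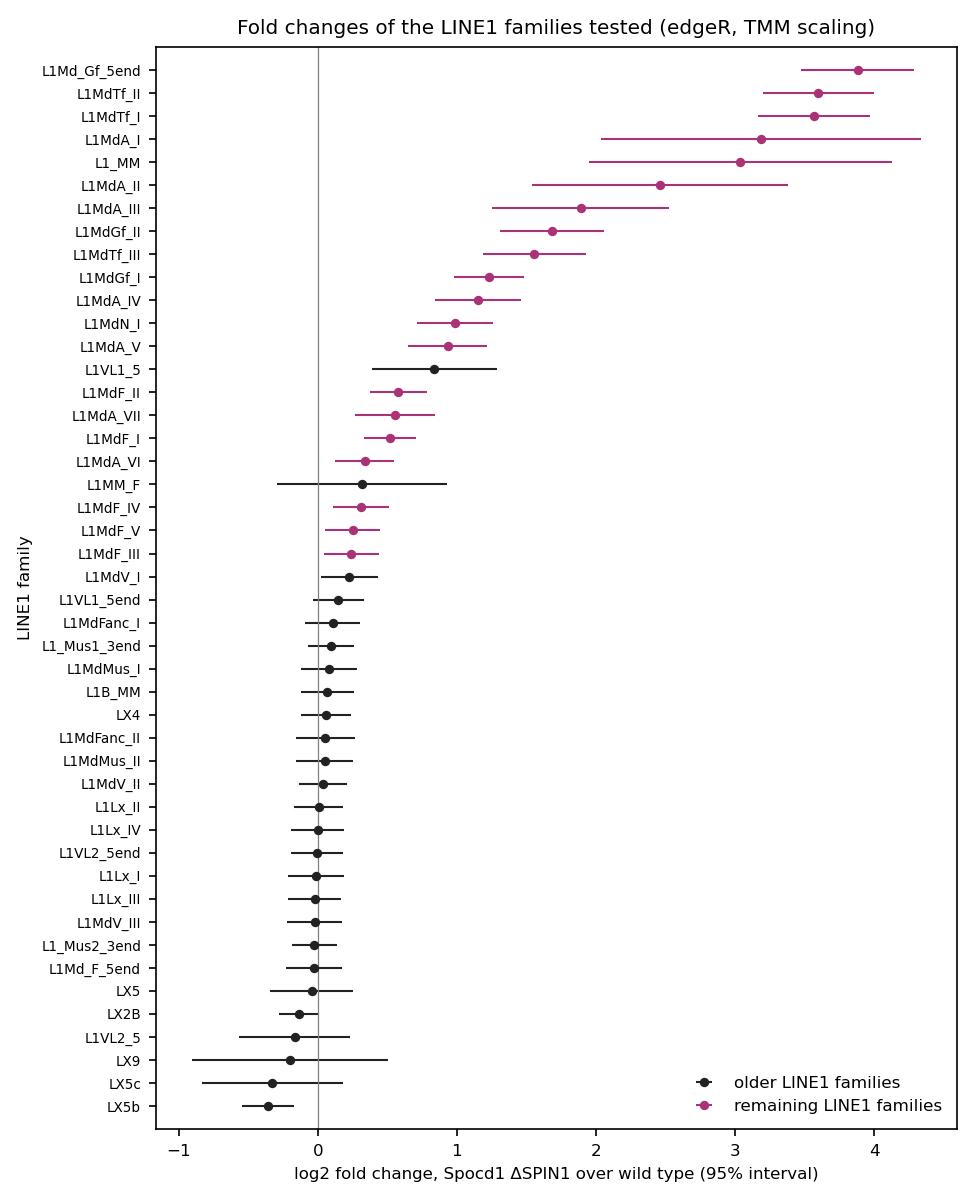
Log2 fold change (Spocd1 ΔSPIN1 over wild type, TMM scaling, edgeR) with 95% intervals for the 26 older (black) and 20 remaining (magenta) LINE1 families tested. Most older families sit near 0, where their median was 0.0021, while the remaining families range from 0.24 to 3.88; with total counts as the scaling, the median of all families tested moves to −1.05 and all 26 older families lie below 0.

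L1VL1_5, an entry of 1037 bases named for a 5′ end, had the largest log2 fold change among the older families. It was represented by 16, 14 and 25 reads in wild type and 30, 44 and 31 reads in the mutants, or 26.8, 27.7 and 34.3 against 48.1, 61.5 and 50.7 normalized CPM. All 3 mutant libraries were above all 3 wild-type libraries, with replicate 2 the highest. The log2 fold change was 0.84 ± 0.19 (SE, n = 3 per genotype), with an adjusted p of 0.80 by Bonferroni and 0.013 by Benjamini-Hochberg in edgeR. With total counts as the scaling its direction turned, to −0.18.

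The call for L1VL1_5 also rested on few reads. Without mutant replicate 2, its log2 fold change was 0.72 and the Benjamini-Hochberg adjusted p in edgeR was 0.053, and over the 12 alternative fits other than total counts, of which DESeq2 was 1, the Benjamini-Hochberg adjusted p lay between 0.011 and 0.053. Relative to L1VL2_5, the entry named in the same way, its log2 ratio within a library was −0.70, −0.89 and −0.64 in wild type and 0.049, 0.65 and 0.096 in the mutants. The ratio was thus above 0 in each mutant library and below 0 in each wild-type library. L1VL2_5 itself had 26, 26 and 39 reads in wild type and 29, 28 and 29 in the mutants, and its log2 fold change was −0.17 ± 0.17. Without mutant replicate 2 that value was −0.080, and without wild-type replicate 3 it was −0.092.

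The longer-named 5′ entries were measured more deeply. L1VL1_5end had 437, 487 and 465 normalized CPM in wild type and 478, 533 and 525 in the mutants, so the genotypes overlapped through wild-type replicate 2. Its log2 fold change was 0.15 ± 0.079 with a 95% interval from −0.036 to 0.33 in edgeR, and −0.87 with total counts. L1VL2_5end had a log2 fold change of −0.0055 with a 95% interval from −0.19 to 0.18. The log2 ratio of L1VL1_5end to L1VL2_5end within a library was −1.24, −1.035 and −1.20 in wild type and −0.96, −1.032 and −1.02 in the mutants. It did not overlap, but replicate 2 was nearly equal in the genotypes. The log2 ratio of L1VL1_5 to L1VL1_5end did not overlap either, with means of −3.97 in wild type and −3.27 in the mutants. The 5 older entries named for a 5′ end had a median log2 fold change of −0.0055.

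L1Md_F_5end was set beside the 5′ entry L1Md_Gf_5end of the young Gf family, which is of nearly the same length. L1Md_F_5end had 480, 532 and 554 normalized CPM in wild type and 477, 519 and 544 in the mutants, a log2 fold change of −0.026 with a 95% interval from −0.23 to 0.17. The log2 ratio of L1Md_Gf_5end to L1Md_F_5end within a library was 0.71, 0.59 and 0.62 in wild type and 4.97, 4.19 and 4.42 in the mutants. The genotypes did not overlap in this ratio, and no test is given because the pair was chosen after its values were seen.

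The V, Fanc and Mus families have entries of 6153 to 6543 bases, near the length of a complete element. The 7 of them had log2 fold changes between −0.023 and 0.23 with a median of 0.055, and 6 lay above 0 on the TMM scale, whereas all lay below 0 with total counts. L1MdV_I was the highest of these in fold change. It had 9741, 9317 and 9568 normalized CPM in wild type and 10252, 11405 and 11832 in the mutants. Every mutant library was above every wild-type library, with replicate 1 closest to wild type.

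The log2 fold change of L1MdV_I was 0.23 ± 0.087 with a 95% interval from 0.023 to 0.43, and −0.79 with total counts. Its p in edgeR was 0.033 before adjustment, 0.087 after Benjamini-Hochberg and 1 after Bonferroni adjustment. DESeq2 called it higher with Benjamini-Hochberg adjustment, as it did 17.1% of all families tested, and so did edgeR when mutant replicate 1 was left out, so its call depended on the test and on a single library.

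L1MdV_I also differed from its own relatives. Its log2 ratio to L1MdV_III within a library was 0.13, 0.15 and 0.10 in wild type and 0.36, 0.41 and 0.36 in the mutants. Its log2 ratio to L1MdV_II was 0.79, 0.79 and 0.70 in wild type and 0.90, 0.97 and 0.99 in the mutants. Both ratios were higher in every mutant library than in any wild-type library. Between L1MdV_II and L1MdV_III the log2 ratio overlapped between genotypes, with means of −0.63 ± 0.031 (SD) in wild type and −0.57 ± 0.048 in the mutants. These pairs, like the other pairs of older families given here, were chosen after their values were seen and are given without a test.

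L1MdFanc_I, the older family with the most counts, had 13729, 12919 and 13852 normalized CPM in wild type and 13947, 14483 and 15222 in the mutants. The genotypes did not overlap, but mutant replicate 1 was only just above wild-type replicate 3. The log2 fold change was 0.11 ± 0.085 with a 95% interval from −0.089 to 0.31 in edgeR, and −0.91 with total counts. Relative to L1MdFanc_II its log2 ratio was 0.47 ± 0.024 (SD, n = 3) in wild type and 0.53 ± 0.066 in the mutants, with overlap. The log2 ratio of L1MdMus_I to L1MdMus_II was 0.97 ± 0.069 in wild type and 0.999 ± 0.015 in the mutants, also with overlap. Among these full-length families only L1MdV_I and L1MdFanc_I had non-overlapping genotypes on the TMM scale.

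The 4 full-length families L1Lx_I, L1Lx_II, L1Lx_III and L1Lx_IV differed little between the genotypes on the TMM scale. Their log2 fold changes lay between −0.022 and 0.0053, and their 95% intervals together spanned −0.21 to 0.19. L1Lx_I had 7075, 6514 and 7220 normalized CPM in wild type and 6431, 6811 and 7418 in the mutants, so that the mutant libraries included both the lowest and the highest value. Within a library, the log2 ratio of L1Lx_I to L1Lx_II was 1.02 ± 0.0098 (SD, n = 3) in wild type and 1.003 ± 0.019 in the mutants. The log2 ratio of L1Lx_I to L1Lx_III was 0.15 ± 0.033 in wild type and 0.16 ± 0.033 in the mutants, and to L1Lx_IV it was −0.025 ± 0.035 and −0.034 ± 0.023. All 3 ratios overlapped between the genotypes. As shares of the older LINE1 counts, which need no scaling, L1Lx_I, L1Lx_III and L1Lx_IV were lower in every mutant library than in any wild-type library. Their mean shares were 6.75%, 6.10% and 6.87% in wild type and 6.46%, 5.78% and 6.62% in the mutants. The shares of L1Lx_II overlapped. Shares without overlap were not particular to these families, since other older families had them in either direction, as listed below.

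Of the 6 short Lx entries tested, 5 had a negative log2 fold change on the TMM scale and all 6 with total counts, with a median of −0.17 on the TMM scale. LX5b, of 1461 bases, was the lowest of all older families. It had 420, 459 and 489 normalized CPM in wild type and 363, 345 and 360 in the mutants, from 220 to 356 reads per library. All mutant libraries were below all wild-type libraries, and the wild-type values were spread more widely.

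The log2 fold change of LX5b was −0.36 ± 0.081 with a 95% interval from −0.55 to −0.17, and the adjusted p in edgeR was 0.71 by Bonferroni and 0.012 by Benjamini-Hochberg. Without wild-type replicate 3 the log2 fold change was −0.30 and the Benjamini-Hochberg adjusted p in edgeR was 0.053, and over the 12 alternative fits other than total counts, of which DESeq2 was 1, the Benjamini-Hochberg adjusted p lay between 0.011 and 0.053. As a share of the older LINE1 counts, LX5b took 0.40%, 0.46% and 0.46% in wild type and 0.36%, 0.32% and 0.32% in the mutants, again without overlap.

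LX2B was the other older family whose mutant values all lay below wild type, with 1715, 1808 and 1765 normalized CPM in wild type and 1540, 1643 and 1631 in the mutants. Its log2 fold change was −0.13 ± 0.062, with an edgeR p of 0.063 before adjustment, and −0.082 with TMM factors from families outside LINE1. In all, 3 of the 26 older families were higher without overlap and 2 were lower without overlap on the TMM scale, where 20.9% and 25% of all families tested did so, and the log2 fold changes of all 5 were below 0 with total counts. The related entries LX5 and LX4 had log2 fold changes of −0.045 and 0.060, and their difference from LX5b was not tested.

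LX5c, LX9 and L1MM_F were too shallow for a comparison of modest differences. LX5c had 41, 31 and 41 reads in wild type and 22, 36 and 38 in the mutants, and a log2 fold change of −0.33 with a 95% interval from −0.83 to 0.18. Without mutant replicate 1 it was −0.15 and without mutant replicate 3 it was −0.49. LX9 had 21, 11 and 32 reads in wild type and 15, 28 and 16 in the mutants, and its log2 fold change of −0.20 ± 0.30 turned to 0.064 without wild-type replicate 3 and was −0.46 without mutant replicate 2. The genotypes overlapped in both families. L1MM_F had 22, 18 and 22 reads in wild type and 20, 41 and 22 in the mutants, and its log2 fold change was 0.32 ± 0.26, or −0.69 with total counts. In that family mutant replicate 2 was the only library above 22 reads, and without it the log2 fold change was 0.0017.

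The 3′ entries differed slightly from each other. The log2 fold change was 0.094 ± 0.071 for L1_Mus1_3end, which became −0.92 with total counts and 0.15 with TMM factors from families outside LINE1. For L1_Mus2_3end it was −0.026 ± 0.070, which became 0.0077 with the size factors of DESeq2 and 0.028 with TMM factors from families outside LINE1. The log2 ratio of L1_Mus1_3end to L1_Mus2_3end within a library was 0.28, 0.23 and 0.23 in wild type and 0.41, 0.32 and 0.37 in the mutants. It was higher in every mutant library, by 0.12 on average, and this pair was also chosen after its values were seen.

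Some shares within the older LINE1 counts differed between the genotypes by small amounts. Among the tested older families, the shares of L1MdFanc_I, L1MdV_I, L1MdMus_I, L1B_MM and L1VL1_5 were higher in the mutants without overlap. Those of L1MdV_III, L1Lx_I, L1Lx_III, L1Lx_IV, LX2B and LX5b were lower without overlap, and all others overlapped. These shares were not computed for families outside the older LINE1, so they have no background to be set against. On the TMM scale, 20.9% of all families tested were higher and 25% lower without overlap. L1MdFanc_I took 13.2%, 13.1% and 13.2% of the older LINE1 counts in wild type and 14.03%, 13.5% and 13.5% in the mutants. L1MdV_I took 9.35%, 9.43% and 9.10% in wild type and 10.3%, 10.6% and 10.5% in the mutants, without overlap. L1MdV_III took 8.53%, 8.49% and 8.47% in wild type and 8.03%, 7.97% and 8.17% in the mutants. Because shares add up to a fixed total, a larger share of some families lowers that of others.

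Replicates of a genotype differed far less in the make-up of the older LINE1 counts than in that of the table as a whole. This comparison leaves out any shift of all older families together. Between libraries of the same genotype, the chi-square per degree of freedom over the older LINE1 families lay between 0.89 and 1.85. The highest values, 1.62 and 1.85, were those of the wild-type pairs with replicate 3, and an excess over the counting error was not tested. Over all families the chi-square per degree of freedom lay between 9.62 and 381, so no pair of libraries was treated as the same library. The largest of the values over all families involved mutant replicate 1. Over the older LINE1 families its pairs gave 1.43 and 1.21, above the 0.94 of mutant replicates 2 and 3 but below the highest wild-type value.

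**Figure D3:**
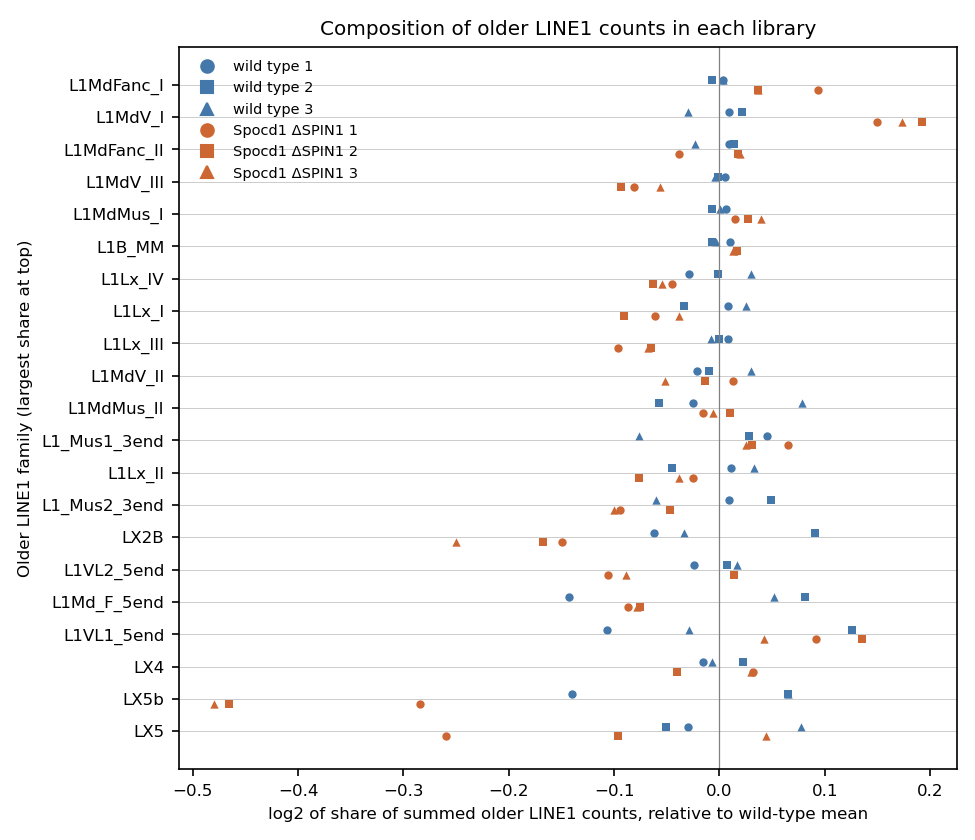
Log2 of the share of the summed older LINE1 counts, relative to the wild-type mean, for the 21 tested families with at least 100 counts in every library (blue, wild type; orange, Spocd1 ΔSPIN1; the marker gives the replicate). L1MdV_I lies to the right in all 3 Spocd1 ΔSPIN1 libraries, with a mean share of 10.5% against 9.30%, and LX5b to the left, with 0.33% against 0.44%; these shares do not depend on the scaling of libraries.

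Within each library, the older LINE1 families were also set against the rest of the table. Their share of all repeat counts was 14.9%, 13.5% and 15.3% in wild type and 7.36%, 7.58% and 7.52% in the mutants, without overlap (exact two-sided permutation p = 0.1, the smallest value that 3 against 3 libraries can give). Counted per kb, the shares were 2.57%, 2.32% and 2.78% in wild type and 1.95%, 2.33% and 2.35% in the mutants, and the genotypes overlapped (exact permutation p = 0.3). Of the counts outside the remaining LINE1 families, the older families took 21.5%, 19.0% and 22.4% in wild type and 15.7%, 19.4% and 19.8% in the mutants, with overlap (exact permutation p = 0.3).

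Against families outside LINE1 the genotypes overlapped. The log2 ratio of older LINE1 counts to counts outside LINE1 was −1.87, −2.09 and −1.79 in wild type and −2.42, −2.05 and −2.01 in the mutants (exact permutation p = 0.3). Mutant replicate 1 was the lowest library and wild-type replicate 2 lay among the mutant values. The mean difference of −0.25 was −0.098 with counts per kb. With 1 library left out it lay between −0.33, without wild-type replicate 2, and −0.12, without mutant replicate 1.

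That replicate was also the lowest of the mutant libraries in 24 of the 26 older families on the TMM scale. In the same library MMERVK10C, an endogenous retrovirus, took 15.5% of the counts outside LINE1, against 10.04% and 11.3% in the other mutant libraries and 2.52%, 2.28% and 2.46% in wild type. Without MMERVK10C, an alternative chosen after seeing the data, the difference in the log2 ratio of older LINE1 counts to counts outside LINE1 was −0.093 (exact permutation p = 0.5).

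The remaining LINE1 families were then set against the older ones. In log2 units, the ratio of remaining to older LINE1 counts was 1.02, 1.10 and 1.04 in wild type and 2.85, 3.01 and 3.05 in the mutants (exact permutation p = 0.1, the smallest possible). The difference of 1.91 exceeded the SDs of 0.042 and 0.10 within the genotypes. The F families were compared in the same way, a choice made after their values were seen. Relative to older LINE1 counts, the log2 ratio was −0.66, −0.60 and −0.66 in wild type and −0.25, −0.35 and −0.36 in the mutants, without overlap, and no test is given.

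The log2 fold changes of the 5 F families lay between 0.24 and 0.58 on the TMM scale, and that of L1MdV_I was 0.23. The 95% intervals of L1MdV_I and L1MdF_III, from 0.023 to 0.43 and from 0.043 to 0.44, were nearly the same. How reads that match several families were assigned is not given in the sources used here, so reads of the remaining families counted on an older entry with similar sequence, and the part they have in the values of L1MdV_I or L1VL1_5, were not tested.

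**Figure D4:**
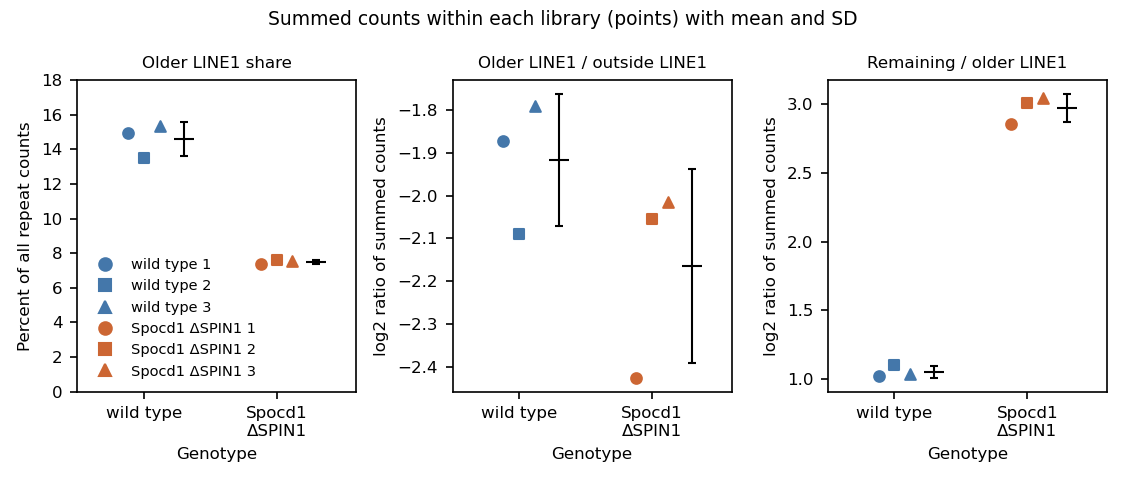
Share of all repeat counts in older LINE1 families (percent), log2 ratio of older LINE1 counts to counts outside LINE1, and log2 ratio of remaining to older LINE1 counts in each library (points), with mean and SD (black) per genotype. The share of older LINE1 is at least 13.5% in each wild-type library and at most 7.58% in each mutant library, the ratio to families outside LINE1 overlaps, and the ratio of remaining to older LINE1 does not.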

How the data were processed

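The authors deposited whole-number read counts per repeat family for the 6 libraries, and a length for every family. The submitters' processing notes name cutadapt 1.18, Bowtie2 2.4.2 and mm10. Libraries were made from rRNA-depleted RNA with a directional kit. The last line of the table is named for the aligner instead of a family, holds 0% of the counts and was left out. Families were filtered with filterByExpr, scaled by TMM and tested on the whole table by edgeR's two-sided quasi-likelihood test (version 4.0.16, R 4.3.3), with Bonferroni adjustment over all families tested and a threshold of 0.05. DESeq2 1.42.0 was an alternative. The standard error was derived from the F statistic. Shares and log2 ratios of summed counts were compared by exact permutation (scipy 1.17.1). Named are the families past either adjustment, the 5 largest and 5 smallest fold changes, and the 5 highest levels per kb. Other families were named after their values were seen. The members and lists were chosen with earlier results of these data known. Both fits were tested on simulated counts.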

Additional observations from a re-analysis of the deposited data

How the results depend on the processing

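The counts of 0 older LINE1 families called higher and 0 called lower with Bonferroni adjustment were obtained in 12 of the 13 alternative fits of the table, which include DESeq2, each library left out in turn and no filter on low counts. With total counts as the scaling, 23 were lower and the median log2 fold change was −1.02. Benjamini-Hochberg adjustment gave 1 higher and 1 lower. Together with no filter on low counts it gave 2 lower, LX5b and LX10, and LX10 had 1, 2 and 3 reads in wild type and 0 in each Spocd1 ΔSPIN1 library. The median lay between −0.028 and 0.055 when a library was left out. Leaving L1Md_F_5end out of the list, an alternative chosen after seeing the data, gave 0 higher, 0 lower and a median of 0.0053.

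The replicate numbers did not pair the libraries: deviations from the genotype mean correlated by 0.066, 0.038 and −0.075 for the same number. With the number as a block, edgeR gave 0 higher and 0 lower, and a median of 0.0019.

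Among 156 log2 fold changes of the 12 named families in the 13 alternative fits, 11 changed direction. With total counts these were L1VL1_5 (−0.18), L1MM_F (−0.69), L1MdV_I (−0.79), L1VL1_5end (−0.87), L1MdFanc_I (−0.91) and L1_Mus1_3end (−0.92). L1_Mus2_3end, which was −1.04 with total counts and kept its direction there, moved to 0.0078 with DESeq2's Wald test, 0.0077 with its size factors, 0.028 with TMM from families outside LINE1 and 0.018 without Spocd1 ΔSPIN1 replicate 1 (from −0.052 to 0.018 over the left-out libraries). LX9 lay between −0.46 and 0.064 over the left-out libraries. It was above 0 only without wild-type replicate 3, the library with the most LX9 reads (32). The cause of these changes was not tested, apart from the scaling itself. The difference in the share of older LINE1 counts was −7.12 percentage points, and −0.35 per kb. The differences in the share of older LINE1 counts, in their ratio to counts outside LINE1 and in the ratio of remaining to older LINE1 counts kept their direction in every alternative run for them, but 3 against 3 libraries cannot give an exact p under 0.1. Families with few reads, such as L1VL1_5, LX5c and LX9, limit what can be detected.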
